A study of Mus musculus with 24 samples.

Results

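Mature miRNAs of spermatocytes lacking 3 of the Argonaute genes (Ago413-/-) were compared with those of spermatocytes that carry 1 intact copy of each (Ago413+/-), in 4 small RNA libraries of each genotype, 8 of the 24 libraries of the study. The libraries were chosen by their labels, and a miRNA was tested when 3 or more of the 8 libraries each held 10 or more of its counts, which left 348 of the 1978 miRNAs in the table. Of the others, 1038 had no count in any of the 8 libraries. The Ago413 allele is a constitutive deletion, made by a Sox2-cre deleter, that removes all of Ago1 and part of its neighbours Ago3 and Ago4. Ago2 is outside the deletion in every mouse, and Ago413+/- mice carry 1 deleted allele. The mice were males of 10 to 15 weeks on a C57BL/6J background. Testes of 2 to 5 mice were pooled for each cell suspension, pachytene and diplotene spermatocytes were taken from a gravity sedimentation gradient as fractions of over 70% purity, and 100 ng of total RNA went into each library. The other libraries were Ago413+/+ spermatocytes and round spermatids of the 3 genotypes, 4 of each. The mRNAs of the deleted genes are not part of a miRNA count table, so that the genotype labels could not be checked against their levels.

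A miRNA is cut from a hairpin precursor whose 2 arms pair, and 1 strand of the resulting duplex, named -5p or -3p after its arm, is loaded into an Argonaute protein. The loaded strand finds its target mRNAs mainly through its seed, bases 2 to 8, and a strand that no Argonaute holds is usually short-lived. Mammals have 4 such Argonaute proteins, of which AGO2 can also cut its target. In spermatocytes the miR-34 and miR-449 family is known to be abundant, and many testis miRNAs come from clusters on the X chromosome.

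The sequences of 7 of the 11 miRNAs that changed between the genotypes are given here as RefSeq has them (GRCm38.p6), 5′ to 3′, with the seed in capitals. The first pair shares a seed and is encoded by neighbouring hairpins.
miR-497a-5p: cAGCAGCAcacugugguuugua
miR-195a-5p: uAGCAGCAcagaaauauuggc
miR-16-5p: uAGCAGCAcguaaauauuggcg
The third, miR-16-5p, is the most abundant miRNA of that seed in these cells and is shown for comparison. The next 3 sequences are of miRNAs whose seeds were found in no other of the 284 tested miRNAs with a sequence.
miR-935: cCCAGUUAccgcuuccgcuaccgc
miR-409-5p: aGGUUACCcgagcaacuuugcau
miR-541-5p: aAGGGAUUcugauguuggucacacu
The last pair of changed miRNAs comes from the X chromosome and from an intron of Nfyc.
miR-471-5p: uACGUAGUauagugcuuuucac
miR-30e-3p: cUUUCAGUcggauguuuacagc
The other changed miRNAs were miR-532-5p, miR-466g, miR-297b-5p and miR-5099.

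The libraries held 305208 to 584888 counts in Ago413+/- and 182904 to 369491 in Ago413-/-. The means of 416348 ± 119109 and 269494 ± 79075 counts (SD, n = 4 each) differed by -146854 counts (exact two-sided permutation test, p = 0.0571, where 4 libraries against 4 allow no p under 0.0286). The limit that 0 counts allow, 3 counts, was worth 4.61 to 9.57 CPM (counts per 1000000 after TMM scaling) in the Ago413+/- libraries and 7.96 to 19.6 CPM in the Ago413-/- libraries. These limits cover counting error only. The miR-34 and miR-449 family made up 6.25% to 19.3% of counts in Ago413+/- and 3.91% to 8.82% in Ago413-/-. Both groups thus held this germ cell family, and 1 library of each group stood apart from the rest. Ago413-/- replicate 2, the shallowest library with 407 miRNAs detected against 564 to 728 in the other 7, lay at 39.8 on the first principal component of log2 CPM, while the other 7 lay between -14.6 and 1.79. Ago413+/- replicate 4 lay at 1.63 on that component, among the Ago413-/- libraries, while the other 3 Ago413+/- libraries lay at -14.6, -13.7 and -10.8. On the second component it lay at 12.3, outside the range of -11.7 to 1.74 of the Ago413-/- libraries. It also had the least of the miR-34 and miR-449 family in its group, 6.25% against 13.8% to 19.3%. The count of changed miRNAs is therefore also given without these libraries.

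**Figure D1:**
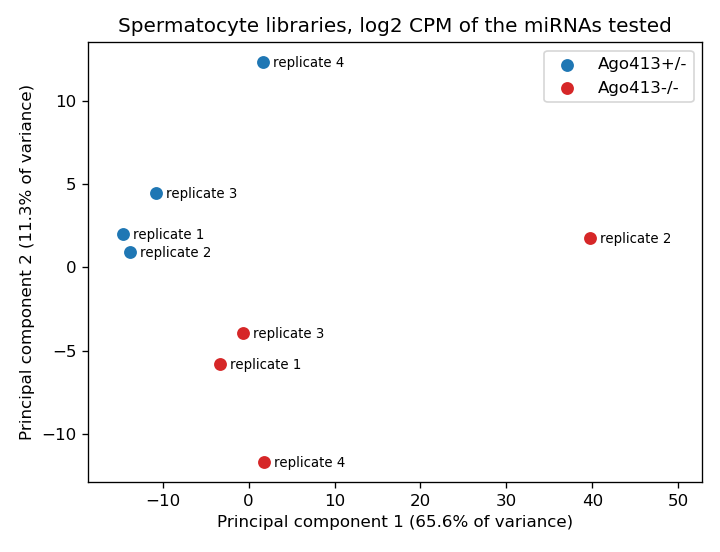
First 2 principal components of log2 CPM of the 348 miRNAs tested, with 65.6% and 11.3% of the variance on the axes and 1 point for each of the 8 libraries (blue, Ago413+/-, red, Ago413-/-). Ago413-/- replicate 2 lies at 39.8 on the first component, and Ago413+/- replicate 4 lies at 1.63, apart from the other Ago413+/- libraries.

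Loss of the second allele went with lower levels of a small set of miRNAs. In Ago413-/- spermatocytes 10 miRNAs fell and 1 rose, which is 2.87% and 0.287% of the 348 tested, 3.16% together (edgeR quasi-likelihood test fitted to all 12 spermatocyte libraries, adjusted p under 0.05 and a fold change of at least 2). The decreases ran from 2.31-fold for miR-30e-3p to 7.69-fold for miR-497a-5p, which had few counts in Ago413-/-. Beside these stood at least 3.16-fold for miR-409-5p and at least 6.94-fold for miR-935, which were nearly absent from Ago413-/-. The increase, of miR-5099, was 3.25-fold. The changed miRNAs were spread over the range of abundance in about the proportions of all miRNAs tested. The 25 most abundant miRNAs, at means of 9565 to 94128 CPM, had a median log2 fold change of 0.30 and held 1 of the 11, miR-5099, the next 75 held 2, and the remaining 248, at 13.1 to 814 CPM, had a median of -0.15 and held 8. Over all miRNAs tested the median log2 fold change was -0.06. An unadjusted p under 0.05 was reached by 91 miRNAs, or 26.1%, and in 44, or 12.6%, the 4 libraries of one genotype did not overlap the 4 of the other, 30 of them lower (8.62%) and 14 higher (4.02%) in Ago413-/-.

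The count of changed miRNAs rested on single libraries. Without Ago413+/- replicate 4 it was 58 (21 higher, 37 lower, 16.7% of those tested), all 11 among them, without Ago413-/- replicate 2 it was 15 (1 higher, 14 lower), and without Ago413+/- replicate 3 it was 7. Without both Ago413+/- replicate 4 and Ago413-/- replicate 2 it was 58 (21 higher, 37 lower), among them 10 of the 11, all but miR-30e-3p. DESeq2 called 56 (15 higher, 41 lower), all 11 among them, and edgeR fitted to the 2 genotypes alone called 4, which were miR-532-5p, miR-497a-5p, miR-409-5p and miR-935. Each of these also kept its call in every fit that left out 1 library.

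**Figure D2:**
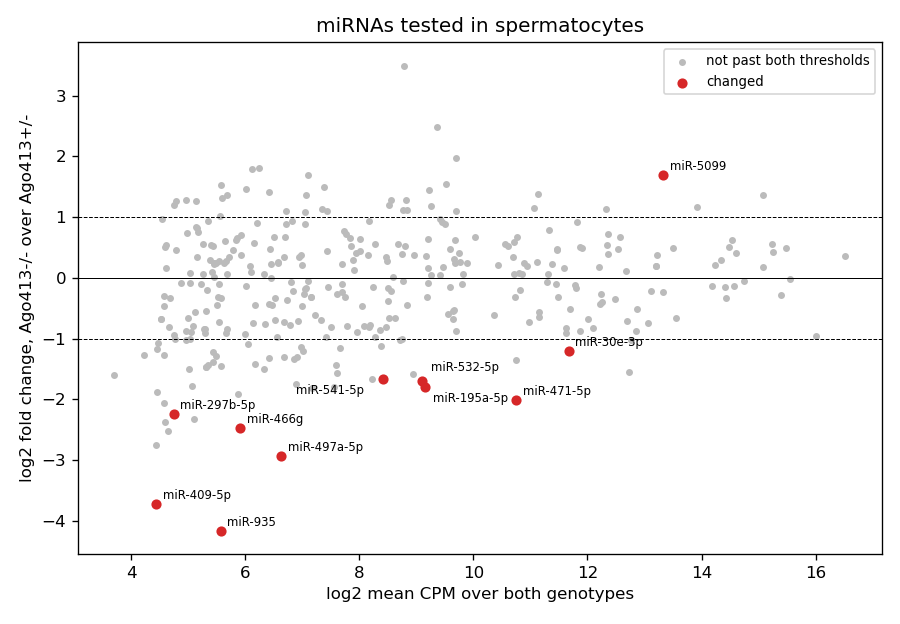
Log2 fold change of Ago413-/- over Ago413+/- (y axis) against the log2 mean CPM over both genotypes (x axis) for the 348 miRNAs tested, 1 point each, with the 11 changed miRNAs in red. The 10 decreases lie below -1, and miR-5099, at 1.70, is the highest in abundance.

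The largest fitted decrease was in miR-935, whose hairpin (RefSeq gene Gm23450, chr7:3415066-3415156 on the plus strand) overlaps an exon of Cacng8, a gene for a channel subunit. Ago413+/- libraries 1 to 4 had 55.7, 55.3, 134.1 and 118 CPM and Ago413-/- libraries 1 to 4 had 5.31, 0, 6.86 and 4.84 CPM. Each Ago413-/- library held 3 counts or fewer, so that the difference is at least 6.94-fold lower (mean CPM of Ago413+/- over the mean worth of 3 counts in each Ago413-/- library), with a log2 fold change of -4.17 (SE 0.57, edgeR adjusted p = 0.000705) by the fit, a value that depends on the prior count at such low counts. Its seed was shared by no other of the 284 tested miRNAs with a RefSeq sequence, and its fitted value stayed between -4.42 and -3.91 when any 1 library was left out.

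Near-loss was also seen for miR-409-5p, from the Dlk1-Dio3 imprinted region, where a long RNA made from the maternal chromosome (Mirg) carries many miRNA hairpins in its introns. The hairpin lies at chr12:109743158-109743236 on the plus strand. miR-409-5p stood at 52.6, 36.9, 34.1 and 41.5 CPM in Ago413+/- and at 5.31, 0, 3.43 and 0 CPM in Ago413-/-, again with 3 counts or fewer in all 4 libraries of that group, which makes it at least 3.16-fold lower, with a log2 fold change of -3.73 (SE 0.60, edgeR adjusted p = 0.00270). Its other arm, miR-409-3p, had 99.1, 145.99, 217 and 433.9 CPM in Ago413+/- against 42.5, 143.5, 58.3 and 19.4 CPM in Ago413-/-, groups that overlap, with a log2 fold change of -1.81 (SE 0.57, edgeR adjusted p = 0.0837). miR-541-5p, from another intronic hairpin in the same host (chr12:109742409-109742498 on the plus strand, 659 bases away), fell from 518 ± 204 CPM to 166 ± 64.7 CPM (SD, n = 4 each). Its 4 Ago413-/- libraries, at 101, 248, 130.3 and 184 CPM, lay below the 4 Ago413+/- libraries, at 468, 266, 590.1 and 749.7 CPM, with a log2 fold change of -1.66 (SE 0.40, edgeR adjusted p = 0.0307). This call was lost without Ago413-/- replicate 1, 3 or 4 and without Ago413+/- replicate 1 or 3. Of the miRNAs of the region in the table only 7 had enough counts to be tested. Of these 2 fell, where 2.87% of all miRNAs tested did so, and 4 were below 0 with a median log2 fold change of -0.88. Without Ago413-/- replicate 2 the median was -0.58 and 3 fell, where 14 of all 348 miRNAs did so. Without Ago413+/- replicate 4 it was -1.24 and 2 fell, where 37 of all 348 did so.

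miR-497a-5p and miR-195a-5p, members of the miR-15/16 family, which is known to repress cyclins and other cell cycle genes, fell together. Their hairpins lie 241 bases apart (chr11:70234717-70234800 on the plus strand, and chr11:70235042-70235135 on the plus strand). miR-497a-5p had 222.9, 222.8, 187.8 and 70.2 CPM in Ago413+/- libraries 1 to 4 against 7.96, 19.6, 44.6 and 19.4 CPM in Ago413-/-, with a log2 fold change of -2.94 (SE 0.51, edgeR adjusted p = 0.00368). Its values in Ago413-/- replicates 1 and 2 equal the worth of 3 counts there, so that the size of this fall rests on few counts. miR-195a-5p had 1167, 864, 919 and 590.2 CPM and 313, 111, 267 and 315 CPM, with a log2 fold change of -1.80 (SE 0.38, edgeR adjusted p = 0.0127). In neither did the genotypes overlap, and Ago413+/- replicate 4 was the lowest library of its group in both. The call of miR-195a-5p was lost without Ago413+/- replicate 1.

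The seed AGCAGCA, printed above, was shared by 6 of the 284 tested miRNAs with a sequence. Beside the 2 that fell, miR-322-5p was at -1.27 (SE 0.64), miR-15a-5p at -0.73 (SE 0.53), miR-15b-5p at -0.56 (SE 0.49) and miR-16-5p at -0.35 (SE 0.38), log2 fold changes that did not pass the test. The most abundant of them, miR-16-5p, had 6375 ± 1444 CPM in Ago413+/- against 5009 ± 2545 CPM in Ago413-/- (SD, n = 4 each), and the counts of the seed summed over its members differed by a log2 fold change of -0.49 (SE 0.39, edgeR adjusted p = 0.405). Over the 10 tested members of the miR-15/16 family list, both arms, 2 fell, where 2.87% of all miRNAs tested did so. Of the 10, 9 were below 0 and the median was -0.64. Without Ago413+/- replicate 4 there were 3 that fell, with a median of -0.89, in a fit that called 16.7% of all miRNAs, 37 of the 348 as lower. The list held 0.620% to 1.31% of counts in Ago413+/- and 0.223% to 1.19% in Ago413-/-.

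On the X chromosome, miR-532-5p and miR-471-5p fell. miR-532-5p comes from a cluster of hairpins in an intron of Clcn5 (chrX:7248402-7248497 on the minus strand), a chloride transporter gene. Its libraries lay close together within each group, at 774, 904, 863 and 833 CPM in Ago413+/- against 249, 163, 309 and 315 CPM in Ago413-/-, with a log2 fold change of -1.70 (SE 0.30, edgeR adjusted p = 0.00410), and its call held in each fit that was run. The other arm, miR-532-3p, was at 46.4, 67.6, 51.2 and 9.57 CPM and 7.96, 0, 13.7 and 4.84 CPM, low counts that overlap between the genotypes, with a log2 fold change of -2.53 (SE 0.67, edgeR adjusted p = 0.0518). All 5 miRNAs of the Clcn5 cluster that were tested were below 0, where 179 of all 348 were. Of the 5, 1 passed, miR-532-5p, where 2.87% of all 348 fell. The median log2 fold change of -1.70 is that of miR-532-5p itself. The 10 miRNAs of the cluster in the table summed to 0.123% to 0.156% of counts in Ago413+/- and 0.0295% to 0.0603% in Ago413-/-, which do not overlap. This sum rested largely on miR-532-5p, with 1727 counts over the 8 libraries against 748 for the next, miR-501-3p. Without the libraries that stood apart 3 of the 5 fell, in a fit that called 16.7% of all miRNAs, 37 of the 348 as lower. The median was -1.47, again the value of miR-532-5p.

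miR-471-5p belongs to the miR-506 superfamily of X-linked testis miRNAs (chrX:66792595-66792661 on the minus strand). It had 3765, 3574, 2675 and 1008 CPM in Ago413+/- against 1024, 450.2, 555 and 692 CPM in Ago413-/-. Ago413+/- replicate 4 lay just under Ago413-/- replicate 1, so that the groups overlap, and the other 3 Ago413+/- libraries were higher than every Ago413-/- library. The fit gave a log2 fold change of -2.01 (SE 0.41, edgeR adjusted p = 0.0117). Its other arm, miR-471-3p, was at 952 ± 145.1 CPM and 649 ± 153 CPM (SD, n = 4 each), with a log2 fold change of -0.55 (SE 0.32, edgeR adjusted p = 0.291). Among the 33 tested miRNAs of the X-linked testis clusters, miR-471-5p alone changed, where 3.16% of all miRNAs tested did so. The others spread from a log2 fold change of -2.06 to 1.37 with 23 of the 33 below 0 and a median of -0.52, and without Ago413+/- replicate 4 there were 7 that fell and 1 that rose, in a fit where 16.7% of all miRNAs were called. As a share of counts these clusters made up 27.8 ± 3.74% in Ago413+/- and 30.4 ± 2.69% in Ago413-/- (SD, n = 4 each).

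miR-466g and miR-297b-5p come from the large cluster in an intron of Sfmbt2, a Polycomb gene (chr2:10514595-10514674 and chr2:10511667-10511775). miR-466g had 89.8, 93.7, 143.9 and 86.1 CPM in Ago413+/- against 15.9, 0, 41.1 and 9.68 CPM in Ago413-/-, with a log2 fold change of -2.48 (SE 0.57, edgeR adjusted p = 0.0250). miR-297b-5p had 37.2, 75.3, 29.3 and 38.3 CPM and 7.96, 0, 17.1 and 9.68 CPM, with a log2 fold change of -2.24 (SE 0.58, edgeR adjusted p = 0.0456). The groups did not overlap in either, but both had few counts. The call of miR-466g was lost without Ago413-/- replicate 1 or 4 or Ago413+/- replicate 3, and that of miR-297b-5p without Ago413-/- replicate 1 or 4 or Ago413+/- replicate 1, 2 or 3. The other arm of the latter, miR-297b-3p, was at -1.47 on the log2 scale (SE 0.52, edgeR adjusted p = 0.0929). Of the 30 members tested from the cluster, 25 were below 0 with a median of -0.77. Of these 30, 2 fell, where 2.87% of all miRNAs tested did so. In 11 the genotypes did not overlap, in either direction, where 12.6% of all miRNAs tested did not. Without Ago413+/- replicate 4 there were 5 that fell, with a median of -0.82, in a fit that called 16.7% of all miRNAs, 37 of the 348 as lower. Without Ago413-/- replicate 2 there were 3, with a median of -0.58, where 14 of all 348 fell. Copies in this cluster are nearly identical, so that reads may be split between them and the values of single members are uncertain. Summed over the 80 members in the table, the cluster gave 0.562% to 0.732% of counts in Ago413+/- and 0.379% to 0.526% in Ago413-/-.

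miR-30e-3p, from an intron of Nfyc (chr4:120772606-120772697 on the minus strand), was the most abundant miRNA that fell. It had 3139.7, 3378, 5667 and 6014 CPM in Ago413+/- against 1598, 1749, 2198 and 2328 CPM in Ago413-/-, without overlap, with a log2 fold change of -1.21 (SE 0.31, edgeR adjusted p = 0.0456). The call was lost without Ago413-/- replicate 1, 3 or 4 and without Ago413+/- replicate 3. Its other arm, miR-30e-5p, had 2737, 3905, 2404 and 855 CPM and 1046, 483, 1094 and 1268 CPM, with Ago413+/- replicate 4 below 3 of the Ago413-/- libraries, and a log2 fold change of -1.35 (SE 0.44, edgeR adjusted p = 0.0837). miR-30a-3p, which shares the seed of miR-30e-3p, was at -0.31 (SE 0.32), and miR-30c-5p, the most abundant of the miR-30 family, at -0.14 (SE 0.28). Of the 11 tested members of the family 10 were below 0, with a median of -0.84. Without Ago413+/- replicate 4 there were 2 of the family that fell, with a median of -0.90, in a fit that called 16.7% of all miRNAs, 37 of the 348 as lower. Without Ago413-/- replicate 2 the median was -0.56.

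The 1 miRNA that rose was miR-5099 (chr12:36816205-36816278), which was also the most abundant of the changed miRNAs. Ago413+/- libraries had 3242, 4849.8, 4594 and 6655 CPM and Ago413-/- libraries 10598, 22744, 10055 and 19539.8 CPM, so that the lowest Ago413-/- library lay above the highest Ago413+/- library. The fit gave a log2 fold change of 1.70 (SE 0.35, edgeR adjusted p = 0.0117). The next in order of p among the miRNAs that were higher in Ago413-/- did not pass the test. miR-3968 had 204, 456, 434.1 and 396 CPM and 836, 1638, 469.7 and 1428 CPM, with a log2 fold change of 1.55 (SE 0.46, edgeR adjusted p = 0.0821). miR-3963, miR-335-3p, miR-7210-5p and miR-3473b also did not overlap between the genotypes, with log2 fold changes from 0.91 for miR-7210-5p to 1.52 for miR-335-3p (edgeR adjusted p = 0.0837 to 0.0929). miR-7223-5p and miR-7217-3p overlapped, at 1.20 and 1.27. The largest fitted difference among the miRNAs higher in Ago413-/-, in miR-122-5p, a liver miRNA, was 3.50 with an SE of 1.15, and its values, 86.7, 115, 75.6 and 6.38 CPM in Ago413+/- against 61.0, 307, 1145 and 1752 CPM in Ago413-/-, overlap. On the lower side miR-93-3p also missed the threshold, with 43.3, 47.6, 41.5 and 31.9 CPM against 10.6, 0, 0 and 19.4 CPM and a log2 fold change of -2.38 (SE 0.66, edgeR adjusted p = 0.0695).

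**Figure D3:**
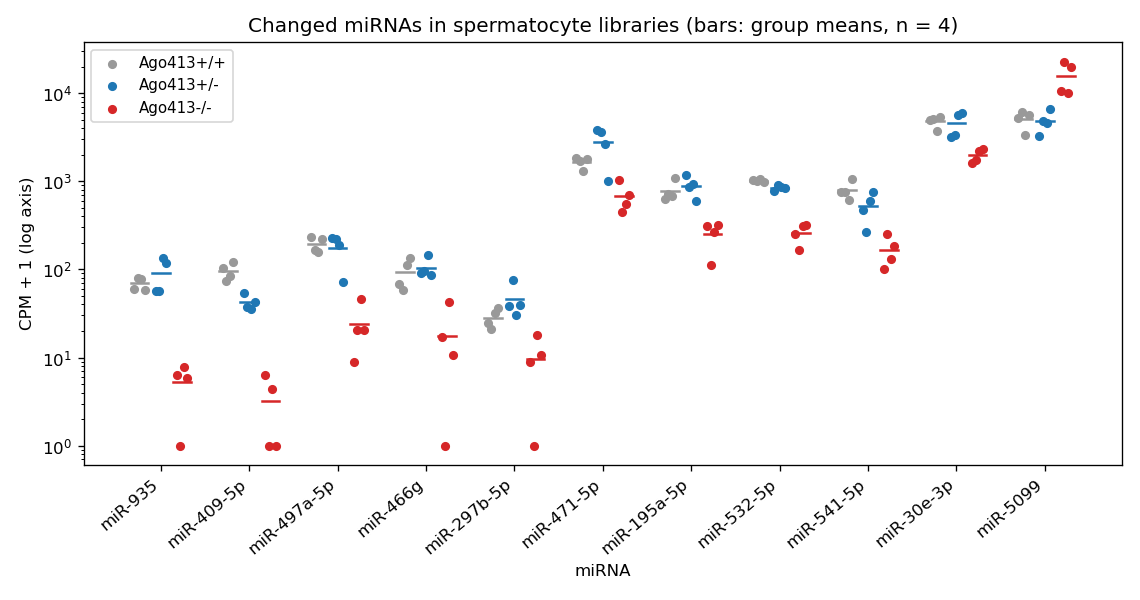
CPM + 1 on a log axis of the 11 changed miRNAs in the spermatocyte libraries, 1 point for each library (grey, Ago413+/+, blue, Ago413+/-, red, Ago413-/-) with the mean of 4 as a bar. Red points lie below the blue ones in the first 10 miRNAs, except that the groups of miR-471-5p overlap, and above them in miR-5099.

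In Ago413+/+ spermatocytes all 4 libraries lay beyond all 4 Ago413-/- libraries, on the same side as Ago413+/-, for each of the 11 changed miRNAs. Against Ago413+/+ 9 of the 11 passed both thresholds, where 17 of the 348 miRNAs tested (4.89%) did so. This contrast uses the same Ago413-/- libraries and is no independent check. The log2 fold changes against Ago413+/+ were -3.77 for miR-935, -4.93 for miR-409-5p, -3.05 for miR-497a-5p, -1.97 for miR-532-5p and 1.63 for miR-5099. Those that did not pass were miR-471-5p at -1.28 and miR-297b-5p at -1.48. The Ago413+/+ mean was within the range from the Ago413-/- to the Ago413+/- mean for 6 of the 11 and outside it, next to Ago413+/-, for miR-30e-3p, miR-541-5p, miR-409-5p, miR-532-5p and miR-497a-5p, where Ago413+/+ was highest.

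The most abundant miRNAs of Ago413+/- spermatocytes were miR-34c-5p, miR-881-3p, miR-191-5p, let-7g-5p and miR-92a-3p. None of them passed the test. miR-34c-5p had 119357, 122963, 73538 and 32508 CPM in Ago413+/- against 48024, 15776, 47805 and 68302 CPM in Ago413-/-, with Ago413+/- replicate 4 below 3 of the 4 Ago413-/- libraries, and a log2 fold change of -0.95 (SE 0.44, edgeR adjusted p = 0.190). miR-881-3p, an X-linked testis miRNA, was at 0.37 (95% interval -0.18 to 0.91), miR-191-5p at -0.02 (-0.61 to 0.57), let-7g-5p at -0.28 (-0.90 to 0.35) and miR-92a-3p at 0.49 (-0.20 to 1.18) on the log2 scale.

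All 7 tested miRNAs of the miR-34 and miR-449 family, which is needed for normal spermatogenesis, were below 0, with a median of -0.91, and none passed the test. Without Ago413-/- replicate 2 the median was -0.64. The family summed to 14.3 ± 5.84% of counts in Ago413+/- and 7.21 ± 2.24% in Ago413-/- (SD, n = 4 each). miR-34b-5p came closest, at 11416, 11461, 15177 and 2501 CPM and 3789.9, 1461, 4525 and 4002 CPM, with a log2 fold change of -1.56 (SE 0.48, edgeR adjusted p = 0.0837), and without Ago413+/- replicate 4 it was -1.88 (edgeR adjusted p = 0.00561). In that fit, which called 16.7% of all miRNAs, 37 of the 348 as lower, 2 of the 7 fell, miR-34b-5p and miR-34c-5p. Its other members, miR-34a-5p, miR-34b-3p, miR-34c-3p, miR-449a-5p and miR-449a-3p, ranged from -1.03 to -0.33.

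The let-7 family, which is known to rise as cells differentiate, went the other way without passing the test, with 10 of 13 tested members above 0 and a median of 0.49. let-7c-5p and let-7b-5p were at 1.17 and 1.14. Without Ago413+/- replicate 4 they were 2.14 and 2.20 and passed, with let-7e-5p, in the fit that called 16.7% of all miRNAs, 21 of the 348 as higher. The median of the family was 0.90 in that fit and 0.07 without Ago413-/- replicate 2. let-7 members differ by few bases, and their counts may be split. All 9 tested members of the miR-10, miR-99, miR-100 and miR-125 families were above 0, with a median of 0.57, among them miR-99a-5p at 0.62 (SE 0.40), and none passed. Their median was 0.11 without Ago413-/- replicate 2 and 1.01 without Ago413+/- replicate 4. In the latter fit miR-10b-5p, a miRNA named after its values were seen, rose, where 21 of all 348 miRNAs did so. In the miR-17-92 cluster and its paralogs, known as growth-promoting miRNAs, 10 of 15 were below 0, with a median of -0.15, and none passed. The median was 0.076 without Ago413-/- replicate 2 and -0.41 without Ago413+/- replicate 4, where 2 of the 15 and 37 of all 348 miRNAs fell. The 2 tested miRNAs of the miR-146 family were at 0.25 and 0.53. Of 5 miRNAs known to be made without Drosha or Dicer, 4 were above 0, with a median of 1.39 and none past the test. Among them, miR-451a, is also a blood marker, and among the others miR-1981-5p was at 1.39 and miR-320-3p at 1.97. The median was 0.31 without Ago413-/- replicate 2 and 2.13 without Ago413+/- replicate 4. In the latter fit miR-320-3p and miR-1981-5p rose and miR-484 fell, all named after their values were seen. Of all 348 miRNAs 21 rose and 37 fell in that fit.

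**Figure D4:**
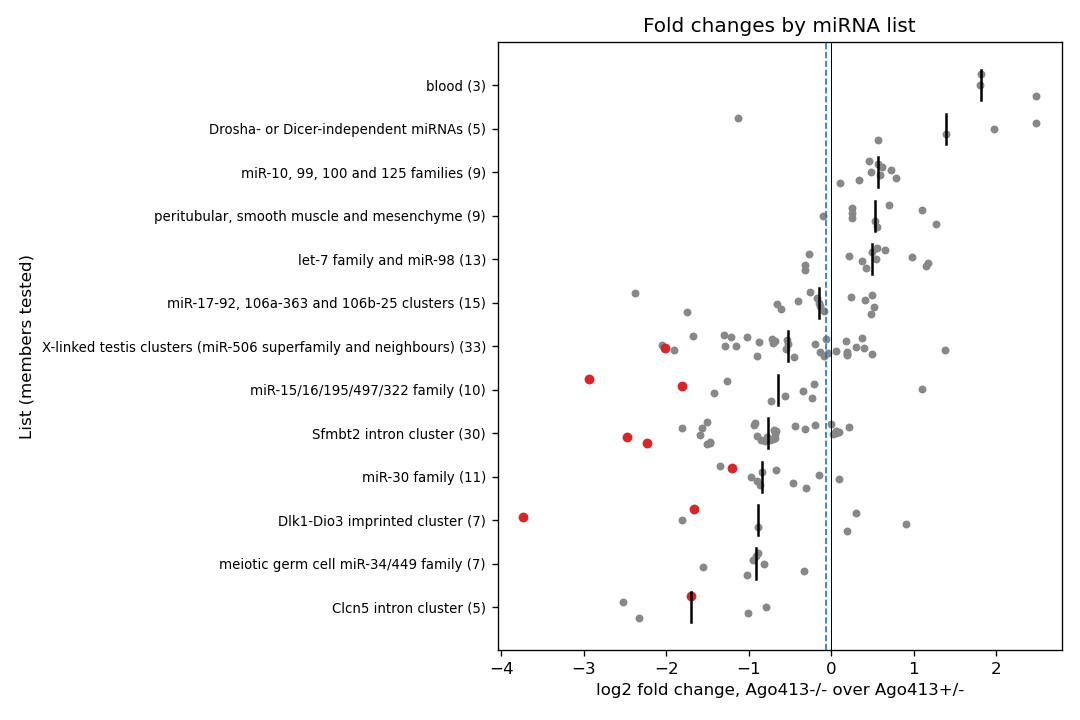
Log2 fold change of Ago413-/- over Ago413+/- (x axis) for the tested members of each list (y axis, number tested in parentheses), 1 point per miRNA, changed miRNAs in red, black bars at the list medians and a dashed blue line at the median of all 348 miRNAs, -0.06. The medians run from -1.70 for the Clcn5 cluster to 1.81 for blood.

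Several markers of other cells had higher levels in Ago413-/-, without passing the test. The 3 tested blood miRNAs were miR-451a of red cells and miR-486a-5p and miR-486b-5p, which are nearly identical in sequence. All 3 were higher in Ago413-/- without overlap and without passing the test, where 4.02% of all miRNAs tested were higher without overlap. miR-451a was at 331, 237, 195.1 and 31.9 CPM in Ago413+/- against 464, 398, 2448 and 1142 CPM in Ago413-/-, with a log2 fold change of 2.48 (SE 0.99, edgeR adjusted p = 0.127). The whole blood list of 9 miRNAs summed to 0.0116% to 0.0416% of counts in Ago413+/- and 0.0421% to 0.294% in Ago413-/-, with miR-223-5p and miR-486b-3p at 0 in all 8 libraries. In Ago413+/+ miR-451a ranged from 11.3 to 2266 CPM. The endothelial miR-126a-3p was at 461, 395, 531.6 and 724 CPM and 2606, 254, 1032 and 629 CPM, with miR-126b-3p and miR-126b-5p at 0, and the 4 miRNAs of that list summed to 0.0451% to 0.0604% and 0.0213% to 0.271%. Without the libraries that stood apart, miR-486a-5p, miR-486b-5p and miR-126a-3p did pass, at 2.25, 2.27 and 1.69. That fit called 16.7% of all miRNAs, 21 of the 348 as higher. Of 9 tested markers of peritubular, smooth muscle and mesenchymal cells, out of 16 in the table, 8 were above 0, and the list summed to 0.356% to 0.501% and 0.250% to 0.844%, with 4 of the 16 at 0. None of the 9 passed. Of the gonadal somatic miR-202 arms, miR-202-3p was at 1.44 and miR-202-5p at -0.43, together 0.333% to 0.996% and 0.240% to 0.964% of counts, and of the spermatogonial markers miR-21a-5p was at -0.22 and miR-221-3p at 0.54, the list summing to 0.669% to 1.29% and 0.360% to 1.09%. The part of other cells in the differences between genotypes was not tested, and in bulk RNA fewer cells of a type and less miRNA per cell cannot be told apart.

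X-linked miRNAs were examined because the study concerns silencing of the sex chromosomes in spermatocytes. Of the 348 miRNAs tested, 55 came from the X chromosome alone and 288 from autosomes. The 159 X-linked miRNAs of the table made up 27.7, 25.9, 25.4 and 33.6% in Ago413+/- libraries 1 to 4 and 28.4, 34.3, 28.8 and 31.1% in Ago413-/- libraries, and the groups overlap. The means of 28.1 ± 3.79% and 30.7 ± 2.71% (SD, n = 4 each) differed by 2.55 percentage points (exact two-sided permutation test, p = 0.257). Without miR-881-3p, the most abundant X-linked miRNA, the difference was 1.32 points, and without Ago413+/- replicate 4 it was 4.38 points (exact permutation p = 0.0571). By the median log2 fold change the X-linked set pointed the other way, at -0.43 with 36 of the 55 below 0. The autosomal miRNAs had a median of 0.05 with 141 of the 288 below 0. The calls were about as frequent in both sets. Of the 55 X-linked miRNAs 2 fell, and of the 288 autosomal ones 8 fell and 1 rose, where 3.16% of all 348 changed. The median log2 CPM of X-linked over autosomal miRNAs within a library was 1.06 ± 0.52 in Ago413+/- and 0.52 ± 0.39 in Ago413-/- (SD, n = 4 each), a difference of -0.54 (exact permutation p = 0.143).

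The less abundant arm of a hairpin is the strand usually discarded when the duplex is loaded. For 86 hairpins whose arms together had 50 or more counts in each spermatocyte library, and whose minor arm was named from the Ago413+/+ libraries, the median log2 ratio of minor to major arm counts was -5.61, -5.37, -5.45 and -5.99 in Ago413+/- and -6.58, -6.89, -6.16 and -6.94 in Ago413-/-. Every Ago413-/- library lay below every Ago413+/- library, and the means of -5.60 ± 0.28 and -6.64 ± 0.36 (SD, n = 4 each) differed by -1.04 (exact two-sided permutation test, p = 0.0286, the smallest that 4 against 4 can give). The Ago413+/+ mean was -5.50 ± 0.25. The -1.04 is a difference between medians over all hairpins of a library, not the change of a typical hairpin. Hairpin by hairpin, the differences between group means had both signs, from -3.98 for miR-470 to 2.18 for miR-202. In the middle of that order were miR-200a, at -0.25, and miR-200c, at -0.20. The difference of -1.04 also depended on minor arms with few counts. With a pseudocount of 5 in place of 0.5 the difference was -0.06 (exact permutation p = 0.657), and 14 to 18 hairpins had no minor arm count in the Ago413+/- libraries against 17, 40, 19 and 26 in the Ago413-/- libraries. With every library thinned to the total of the shallowest it was -0.995 (exact permutation p = 0.0286), and for the 29 hairpins of 500 counts or more -1.12 (exact permutation p = 0.114). Library totals were also lower in Ago413-/-, and their part beyond the thinning was not tested.

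Within single hairpins the minor arm share did not overlap between the genotypes in 5 of the 86 (5.81%), lower in Ago413-/- for miR-470, miR-93, miR-200b and miR-140 and higher for miR-92b. miR-470, an X-linked testis hairpin (chrX:66813951-66814025 on the minus strand), was chosen for description after its values were seen, since its arms went apart.
miR-470-5p: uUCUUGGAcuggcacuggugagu
miR-470-3p: aACCAGUAccuuucugagaaga
The abundant arm, miR-470-5p, had 12822, 10320.4, 13187 and 40340.0 CPM in Ago413+/- against 33101, 90572, 34181 and 40657 CPM in Ago413-/-, with Ago413+/- replicate 4 among the Ago413-/- libraries, and a log2 fold change of 1.37 (SE 0.45, edgeR adjusted p = 0.0849). The rare arm, miR-470-3p, had 130.0, 114, 68.3 and 67.0 CPM and 42.5, 0, 37.7 and 9.68 CPM, without overlap, and a log2 fold change of -1.91 (SE 0.56, edgeR adjusted p = 0.0796). Neither arm passed the test. Arms of miR-195a also differed in sign, with miR-195a-3p at 99.1, 75.3, 141 and 128 CPM in Ago413+/- against 132.7, 196, 267 and 353 CPM in Ago413-/-, where Ago413-/- replicate 1 lay under Ago413+/- replicate 3, and a log2 fold change of 1.10 (SE 0.42, edgeR adjusted p = 0.111), while miR-195a-5p fell as given above.

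The same contrast in round spermatids, the haploid cells that follow meiosis, rests on other libraries, which may come from the same mice. All 11 miRNAs had the same sign there, and 9 of them passed both thresholds, where 34 of all miRNAs tested there (8.27%) did so. The log2 fold changes in round spermatids were -2.41 (SE 0.41) for miR-935, -2.89 (SE 0.46) for miR-409-5p, -2.41 (SE 0.43) for miR-497a-5p and -2.23 (SE 0.42) for miR-541-5p. The exceptions were miR-297b-5p, at -0.66 (SE 0.48), and miR-5099, at 0.04 (SE 0.34). A fit of all 24 libraries took them as independent, and a tie between the cell types through shared mice was not modelled. Tested directly in this fit, the contrast differed between the cell types for 0 miRNAs (edgeR, adjusted p under 0.05), while 22 had an unadjusted p under 0.05. DESeq2 called 1. The lowest was miR-195a-3p, higher in Ago413-/- spermatocytes and lower in Ago413-/- round spermatids, at -1.07, with a difference of 2.18 (edgeR adjusted p = 0.0795). For miR-5099 the difference was 1.66 (edgeR adjusted p = 0.295), so that its change in spermatocytes was not shown to differ from that in round spermatids.

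**Figure D5:**
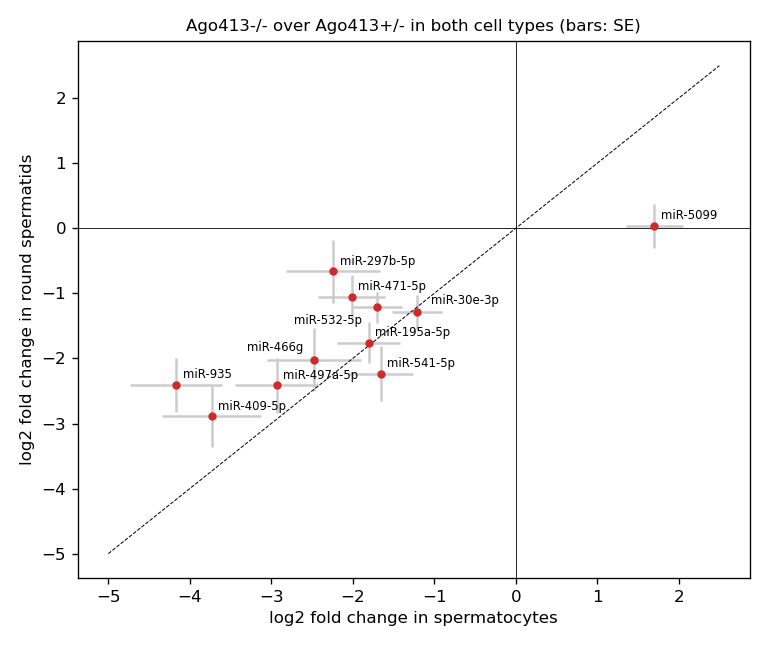
Log2 fold change of Ago413-/- over Ago413+/- for the 11 changed miRNAs in spermatocytes (x axis) and round spermatids (y axis), with SE bars and a dashed line of equality. The 10 miRNAs that fell in spermatocytes lie below 0 in both cell types, and miR-5099 lies at 1.70 and 0.04.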

How the data were processed

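Small RNA libraries (NEBNext kit) of 8 spermatocyte samples, with the other 16 libraries of the study for shared estimates and for round spermatids, were analysed from 1 table. The authors trimmed reads with Trim Galore, matched them to mature mouse miRNAs of miRBase with the miRDeep2 quantifier, and deposited raw counts per mature miRNA, without normalization. Tool versions are not given in the sources used here. The authors' grouping into families was not used here. All 24 columns matched a label.

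Counts were analysed in R 4.3.3 with edgeR 4.0.16. Groups came from the labels. A miRNA was kept when 3 or more of the 8 libraries each had 10 or more counts of it, TMM scaling was applied, and the quasi-likelihood model used the 12 spermatocyte libraries without covariates. Changed means a Benjamini-Hochberg adjusted p under 0.05 together with a log2 fold change of 1 or more in either direction. The interaction with cell type was fitted to all 24 libraries, without pairing of the cell types. Library values were compared by exact two-sided permutation tests (scipy 1.17.1). Whether libraries of a group came from separate mice beyond the pools is not stated, so that p-values measure the spread between these samples. Within a group, no pair of libraries agreed within sampling noise. The test was run on simulated counts beforehand.

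The named miRNAs are the 5 most abundant in Ago413+/-, the 12 with the largest change in each direction (filled up by the lowest p), the 10 most abundant changed, the other arms of changed hairpins, cell type markers, and the changed and most abundant members of the lists. Members and lists were chosen with earlier results of these data known. Hairpin positions and sequences are from RefSeq (GRCm38.p6), host genes from GENCODE M21; 346 of the 348 were placed and 284 had a sequence. Rows of 6 tested miRNAs equal another row. Alternatives were DESeq2 1.42.0, RLE scaling, library totals, other filters, a replicate block, the 2 genotypes alone, the adjusted p alone, seed families, other settings of the library values and leaving out each library. Leaving out both libraries that stood apart, and thinning, were chosen after seeing the data.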

Additional observations from a re-analysis of the deposited data

Results flagged for a closer look

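Among 128 groups of 4 libraries examined for the named miRNAs, 7 held a library far from the other 3 by Dixon's test, where chance gives about 1 in 20, or 6.4. Ago413-/- replicate 2 stood out for miR-191-5p, at 26293 CPM, for miR-470-5p, at 90572 CPM, and for miR-3473b, at 418 CPM. Ago413+/- replicate 4 stood out for miR-470-5p, at 40340.0 CPM, and for miR-202-3p, at 794 CPM. Ago413+/- replicate 3 stood out for miR-466g, at 143.9 CPM. Ago413-/- replicate 3 stood out for miR-199b-5p, at 569 CPM while the other 3 Ago413-/- libraries had 0. Of these 7, 5 were in the libraries that also stood apart on the principal components.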

How the results depend on the processing

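The count of 11 changed miRNAs moved to 56 with DESeq2, 34 of 940 with no filter, 6 with 10 counts in every library, 4 with only the 2 genotypes, 7 of 290 with seed families, 58 without both libraries that stood apart, and 7 to 58 without 1 library. The count stayed near 11 with RLE scaling (11) and library totals (10). The replicate numbers did not pair the libraries (correlations of deviations 0.53, -0.38, 0.04 and -0.51, and 1 of the 4 Ago413-/- libraries correlated best with its own number), and with the replicate block 8 were called. The 0 calls of the cell type difference became 1 with DESeq2, library totals or 10 counts in every library, 8 of 1111 with no filter, and 0 to 1 without 1 library. The difference in minor arm share, -1.04, lost its p under 0.05 with at least 500 counts (-1.12), a pseudocount of 5 (-0.063), without both libraries (-1.08) and without 1 library (-1.20 to -0.94), where 4 against 3 and 3 against 3 allow no p under 0.0571 and 0.1. The X-linked difference reversed on the median log2 scale (-0.54). Of 61 named miRNAs, none of the changed ones reversed. miR-191-5p reversed with only the 2 genotypes (0.0055) and without both libraries (0.28), as did let-7g-5p (0.070), miR-30c-5p (0.043) and miR-199a-5p (0.12) without both, and miR-199b-5p with the block (-1.48). Without 1 library the sign varied for miR-191-5p (-0.10 to 0.18), miR-669c-5p (-0.38 to 0.91), miR-30c-5p (-0.25 to 0.037), miR-145a-5p (-0.10 to 0.86), miR-199a-3p (-0.054 to 0.49), miR-199a-5p (-0.74 to 0.15), miR-199b-3p (-0.052 to 0.49), miR-199b-5p (-7.93 to 1.61) and miR-1a-3p (-0.069 to 0.59). The cause of these changes was not tested. Low counts limit miR-935, miR-409-5p, miR-497a-5p, miR-466g, miR-297b-5p and the minor arms.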
